A study of Bos taurus with 15 samples.

Results

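The aminoacyl tRNA synthetases are the enzymes that load each transfer RNA (tRNA) with its own amino acid before the ribosome uses it. The genes described here are 35 synthetase genes, chosen by their gene symbols and found by gene identifier among the 10832 genes of the filtered count table from bovine blastocysts. Of these, 19 encode enzymes of the cytosol and 16 encode enzymes that work in the mitochondrion, and all 35 passed the authors' filter on low counts. The cytosolic genes were AARS1, CARS1, EPRS1, FARSA, FARSB, GARS1, HARS1, IARS1, KARS1, LARS1, MARS1, NARS1, QARS1, RARS1, SARS1, TARS1, VARS1, WARS1 and YARS1. The mitochondrial genes were AARS2, CARS2, EARS2, FARS2, HARS2, IARS2, LARS2, MARS2, NARS2, PARS2, RARS2, SARS2, TARS2, VARS2, WARS2 and YARS2.

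A separate nuclear gene encodes the mitochondrial enzyme for most amino acids, and that enzyme charges the tRNAs with which the mitochondrial genome is translated. GARS1 and KARS1 are exceptions, since each gives both the cytosolic and the mitochondrial enzyme. Several cytosolic enzymes are held in the multisynthetase complex, which the scaffold proteins AIMP1, AIMP2 and EEF1E1 bring together, and 7 of the 19 cytosolic genes belong to it (EPRS1, IARS1, KARS1, LARS1, MARS1, QARS1 and RARS1). The fold of the catalytic domain divides the enzymes into class I, with 19 of the 35 genes, and class II, with 16. EPRS1, which joins a glutamate enzyme and a proline enzyme in 1 protein, was counted in class I only. When amino acids are short, uncharged tRNA activates the kinase encoded by EIF2AK4, the transcription factor ATF4 is translated more, and many cytosolic synthetase genes are among the known targets of ATF4, together with the asparagine synthetase gene ASNS and genes of serine synthesis.

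The RNA came from pools of 8 to 14 bovine embryos that had been fertilised and cultured in vitro and were blastocysts at day 7 according to the labels. The study's text instead gives 8 days of culture with or without vesicles. Control embryos (Co) were cultured without oviductal extracellular vesicles (oEVs), whereas the treated embryos were given postovulatory oEVs that were either freshly isolated (FeEV) or frozen and thawed (FoEV). There were 5 libraries per treatment, each made from 1 ng of total RNA of 1 pool, and the pools with the best RNA had been chosen for sequencing, so the libraries measure the mean of the embryos in a pool. Library totals ran from 2136713 to 4058887 counts, the 5 FoEV libraries were deeper than the 5 Co libraries, and synthetase genes took 7766 to 12823 counts per library. Levels are given as CPM, the counts per 1000000 filtered counts of a library after scaling by TMM (trimmed mean of M values, which corrects for library composition). Trophectoderm markers (CDX2, GATA2, GATA3, KRT8, KRT18 and TFAP2C) summed to 6352 to 8597 CPM in Co, 6937 to 10390.5 in FeEV and 8267 to 11182 in FoEV, and 4 of the 6 were higher in FoEV than in Co at an unadjusted p under 0.05, beside 8.18% of all genes, and none at an adjusted one. The 4 inner cell mass markers (NANOG, SOX2, POU5F1 and KLF4) summed to 330.2 to 436, 315 to 434 and 314 to 505 CPM in the same order. NANOG alone of them passed the unadjusted threshold, with a log2 fold change of -0.84 for FoEV against Co (edgeR quasi-likelihood, adjusted p = 0.178) and -0.62 for FeEV against Co (adjusted p = 1.00). Of all genes, 6.88% and 2.32% were lower at this threshold in these comparisons. The study, with its own test and threshold, listed NANOG as lower and KRT18 as higher in FoEV than in Co. Of 3 blood cell markers, HBB was at 0 in all 15 libraries, and the sum of the 3 stayed between 2.26 and 5.87 CPM, whereas the 3 oviduct epithelium markers summed to 4.83 to 13.9 CPM and the 6 cumulus and granulosa cell markers to 49.6 to 148 CPM. In such bulk RNA, fewer cells of a type and less RNA per cell cannot be told apart.

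All 35 synthetase genes were counted in all 15 libraries, with 16 counts as the smallest value of any of them (MARS2). Transcript lengths were not at hand, so a CPM compares libraries for 1 gene and does not rank genes by transcript number. The cytosolic genes held 84.7% to 88.6% of the synthetase counts of a library. Most reads fell on TARS1 (threonine), NARS1 (asparagine) and EPRS1 (glutamate and proline, joined in 1 protein) among the cytosolic genes, and on IARS2 (isoleucine), YARS2 (tyrosine) and EARS2 (glutamate) among the mitochondrial genes. The fewest fell on FARSA, which encodes the alpha subunit of the phenylalanine enzyme, and HARS1 (histidine), and on MARS2 (methionine) and PARS2 (proline) in the mitochondrial class. In a later bovine annotation 10 of the 35 genes overlap another protein-coding gene (AARS1, CARS2, MARS1, MARS2, RARS1, RARS2, TARS2, VARS1, YARS1 and YARS2), and how the reads of overlapping genes were divided is not given in the sources used here.

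**Figure D1:**
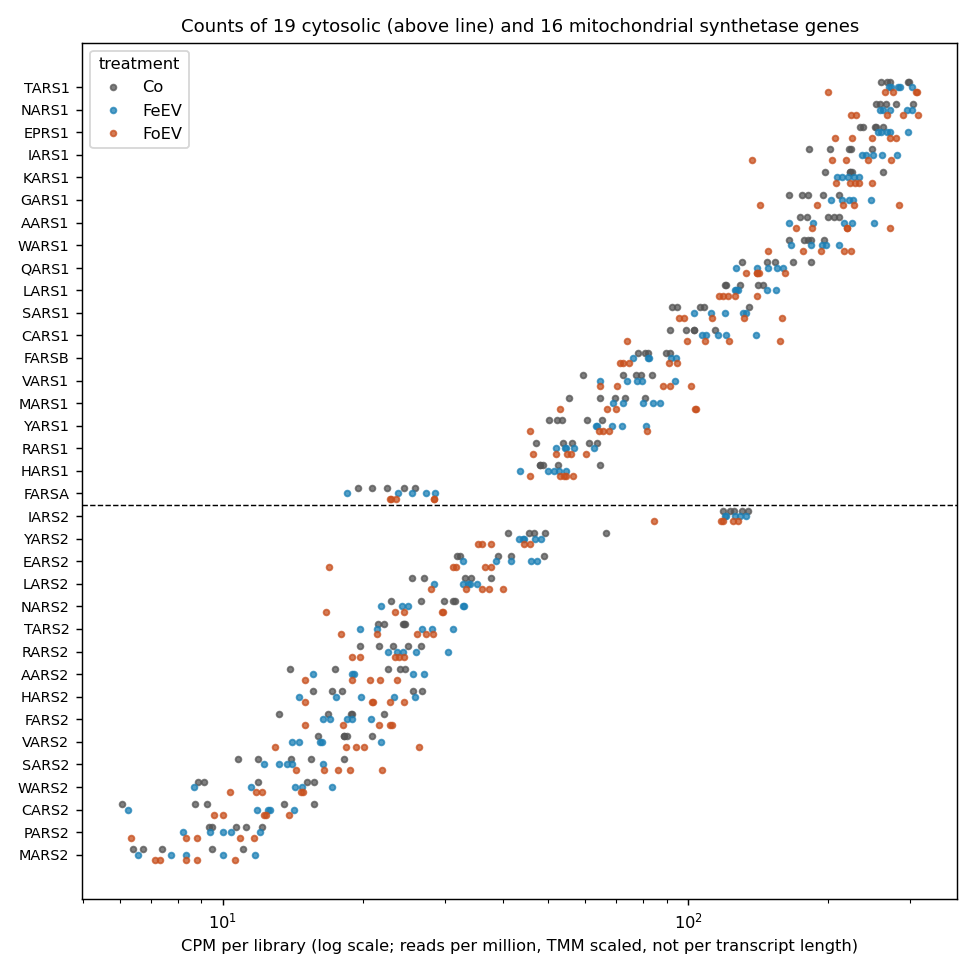
CPM of each of the 35 synthetase genes in each of the 15 libraries on a log axis, with 1 point per library coloured by treatment, cytosolic genes above the dashed line and mitochondrial genes below it, each class ordered by its mean. The points of the 3 treatments overlapped for every gene, and the FoEV points of several cytosolic genes spread wider than those of Co and FeEV.

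TARS1 had 272, 298, 268, 260.1 and 298 CPM in Co replicates 1 to 5, 286, 283, 272, 302 and 270.1 in FeEV and 200.1, 266, 311, 309 and 275 in FoEV. NARS1 had 266, 305, 258, 279.7 and 254 CPM in Co, 258, 302, 271, 296 and 262 in FeEV and 229, 267, 312, 290.5 and 224 in FoEV. EPRS1 had 235, 254, 262, 237 and 252 CPM in Co, 259.9, 297, 256, 271 and 268 in FeEV and 207, 249, 280.5, 271 and 225 in FoEV. For all of these 3 genes the treatments overlapped, and the FoEV libraries held both values below every Co library and values above every Co library. At the lower end, FARSA had 25.9, 19.6, 21.0, 24.5 and 22.6 CPM in Co, 18.5, 28.6, 23.8, 25.5 and 27.4 in FeEV and 23.6, 23.0, 28.4, 28.4 and 22.9 in FoEV. HARS1 had 64.5, 52.6, 48.7, 48.2 and 48.0 CPM in Co, 43.5, 51.6, 50.0, 52.8 and 54.7 in FeEV and 56.5, 54.7, 54.0, 53.1 and 45.8 in FoEV. Co replicate 1 held the highest HARS1 value of the 15 libraries, and the remaining values of the 3 treatments lay close together. The gene is a direct neighbour of HARS2, its mitochondrial counterpart, which had 15.7 to 26.8 CPM in Co, 14.6 to 25.9 in FeEV and 15.1 to 24.5 in FoEV.

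Among the mitochondrial genes, IARS2 had 135, 123, 131, 126 and 119 CPM in Co, 126, 120.3, 121, 129 and 133 in FeEV and 125, 128, 119, 84.5 and 117 in FoEV. It was the steadiest mitochondrial gene in Co and FeEV, with a coefficient of variation of 4.87% and 4.34%, and FoEV replicate 4 lay below the other 14 libraries. The least covered genes were MARS2 with 9.48, 6.75, 7.42, 6.42 and 11.1 CPM in Co, 8.34, 10.03, 6.57, 7.74 and 11.7 in FeEV and 8.80, 7.32, 7.16, 8.35 and 10.6 in FoEV, and PARS2 with 9.48, 12.1, 9.35, 11.2 and 10.7 CPM in Co, 10.4, 10.03, 9.38, 8.20 and 12.0 in FeEV and 8.80, 8.32, 6.34, 11.7 and 10.9 in FoEV. The treatments overlapped for both.

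Whether oEVs and their freezing altered the embryonic transcriptome was addressed by 3 comparisons, which share libraries because each treatment enters 2 of them. No synthetase gene passed in any of them. At an adjusted p under 0.05 (edgeR quasi-likelihood F test, Benjamini-Hochberg adjustment over the 10832 genes), 0 of the 35 genes were called for FoEV treatment vs. Co, beside 0.00923% of all genes, 0 for FeEV treatment vs. Co, beside 0.0%, and 0 for FoEV vs. FeEV treatment, beside 0.0%. Since the F test called at most 1 of the 10832 genes in a comparison, 0 of 35 does not set the synthetase genes apart. The Wald test of DESeq2 and the likelihood ratio test with a robust dispersion also called 0 of the 35 in each comparison. Their shares of all genes at this adjusted threshold are not given here, so these counts lack a background. The study, with its own robust likelihood ratio test and threshold, listed differentially expressed genes in all 3 comparisons. At an unadjusted p under 0.05 edgeR gave 1, 1 and 2 of the 35 genes, in the same order, beside 15.1%, 4.15% and 8.52% of all genes tested. DESeq2 gave 1, 1 and 1, beside 14.7%, 3.79% and 8.33% of all genes. The robust test gave 1, 3 and 2, beside 18.1%, 6.13% and 11.0%. No synthetase gene had its 5 libraries of 1 treatment all above or all below those of another, beside 1.26% of all genes with FoEV above and 1.35% with FoEV below Co. For FeEV and Co these shares were 0.535% and 0.415%, and for FoEV and FeEV 0.757% and 0.748%.

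The intervals of the cytosolic class were narrow. For all 19 cytosolic genes the 95% interval of the fold change lay within 1.5-fold up or down in each of the 3 comparisons. For the mitochondrial genes this held for 12 of 16 in FoEV treatment vs. Co, 15 of 16 in FeEV treatment vs. Co and 13 of 16 in FoEV vs. FeEV treatment, and those with wider intervals were CARS2, EARS2, PARS2, SARS2 and VARS2. Over both classes the counts were 31, 34 and 32 of 35, beside 60.0%, 66.7% and 65.5% of all genes tested, and these intervals are per gene and not adjusted for the number of genes. The mitochondrial genes had fewer reads, with a median standard error of the log2 fold change of 0.17 for FoEV treatment vs. Co against 0.11 for the cytosolic genes.

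**Figure D2:**
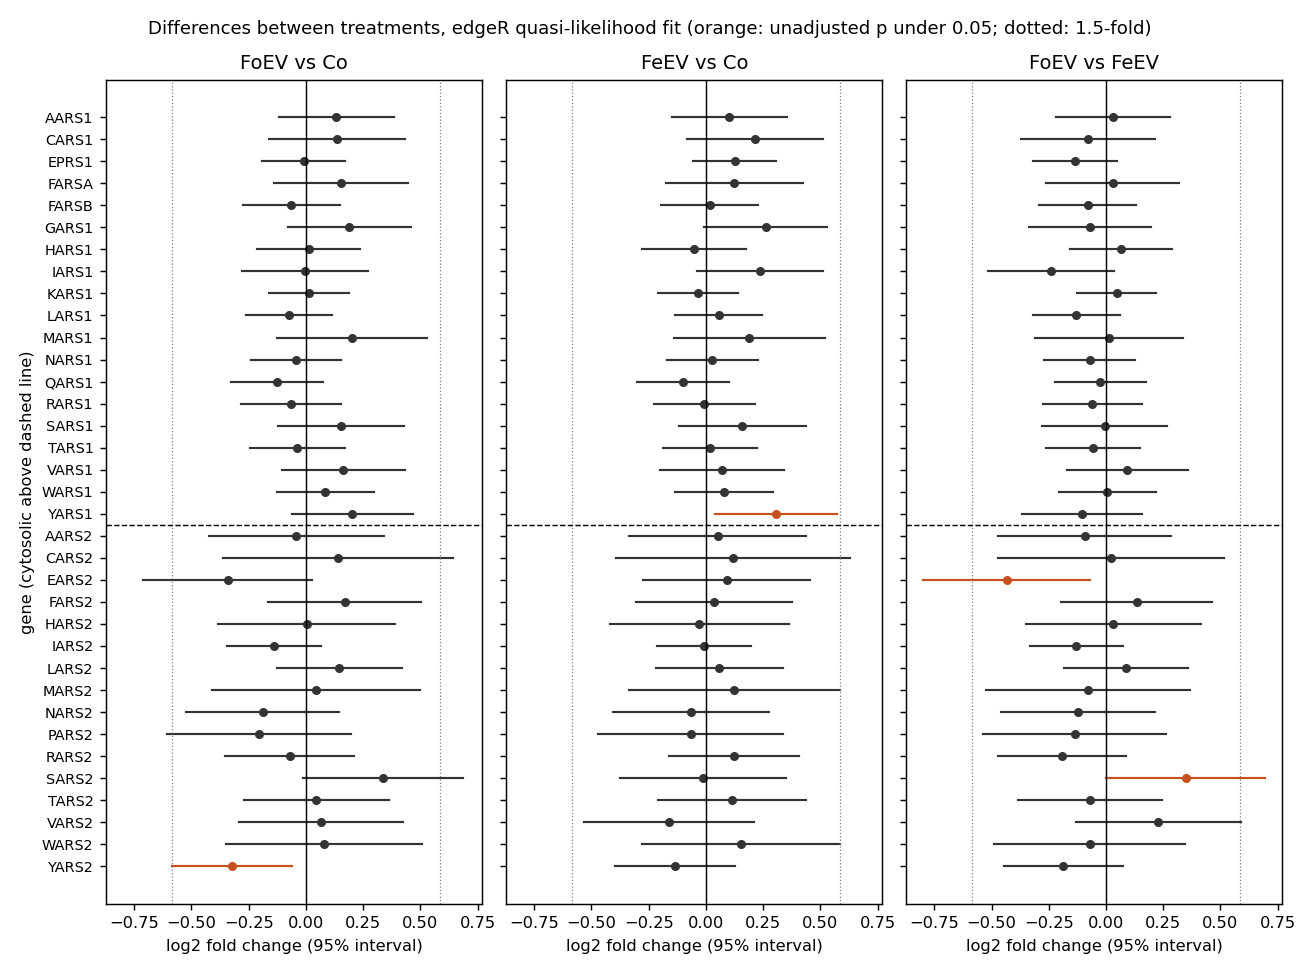
Log2 fold change of each synthetase gene with its 95% interval in the 3 comparisons, from 1 edgeR quasi-likelihood fit over 15 libraries, with cytosolic genes above the dashed line, the 1.5-fold limits dotted and genes with an unadjusted p under 0.05 in orange. Orange marks 1 gene in FoEV vs Co (YARS2), 1 in FeEV vs Co (YARS1) and 2 in FoEV vs FeEV (EARS2 and SARS2), and the intervals of the mitochondrial genes are wider.

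In FoEV treatment vs. Co the cytosolic genes had a median log2 fold change of 0.01, with 11 higher and 8 lower in FoEV and values from -0.13 to 0.20. The mitochondrial genes had a median of 0.02, with 9 higher and 7 lower and a range from -0.34 to 0.33. The median over all genes was 0.01, with 52.3% of them higher and 47.7% lower in FoEV. With all libraries the centres of both classes lay within 0.01 of that of all genes, and the mitochondrial values scattered more on both sides. With 1 library left out, the cytosolic median ran from -0.01 (without FoEV replicate 4) to 0.12 (without FoEV replicate 1), and the mitochondrial median turned below 0 without Co replicate 2, 4 or 5 or FoEV replicate 4 or 5, down to -0.06. Within the cytosolic class the 7 genes of the multisynthetase complex had a median of -0.01, with 2 higher and 5 lower, and the other 12 had a median of 0.13, with 9 higher and 3 lower. Class I and class II enzymes had medians of 0.04 and 0.01.

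In FeEV treatment vs. Co more cytosolic genes had a higher mean with oEVs. The median of the cytosolic genes was 0.08, with 15 higher and 4 lower in FeEV and a range from -0.10 to 0.31, beside a median of 0.00 over all genes, of which 51.0% were higher and 49.0% lower. The 4 lower genes were HARS1, KARS1, QARS1 and RARS1. The mitochondrial genes had a median of 0.04, with 9 higher and 7 lower and a range from -0.16 to 0.15. The complex members had a median of 0.06 (4 higher, 3 lower) and the other cytosolic genes 0.09 (11 higher, 1 lower), and the medians were 0.09 for class I and 0.02 for class II. The cytosolic median stayed above 0 but moved to 0.04 without FeEV replicate 4, to 0.05 without Co replicate 3 and to 0.16 with the numbers of the sample descriptions as a block, whereas the mitochondrial median lay between 0.002 and 0.03 without Co replicate 3 or 5 or FeEV replicate 2 or 5 and turned to -0.01 without FeEV replicate 1. In FoEV vs. FeEV treatment 12 of 19 cytosolic and 10 of 16 mitochondrial genes were lower in FoEV, with medians of -0.06 and -0.08 beside 0.01 over all genes, of which 51.8% were higher and 48.2% lower. The sign of the cytosolic median rested on FoEV replicate 1, without which it was 0.04. It ran from -0.10 (without FoEV replicate 4) to -0.01 (without FeEV replicate 4) with any other library left out, and without FoEV replicates 1 and 4 it was -0.003. The mitochondrial median stayed below 0, from -0.15 without FeEV replicate 3 to -0.03 without FoEV replicate 4.

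YARS1, which encodes the cytosolic tyrosine enzyme, was the cytosolic gene with the smallest unadjusted p. It had 50.3, 52.3, 53.5, 65.4 and 60.7 CPM in Co, 63.5, 63.9, 68.8, 81.1 and 72.1 in FeEV and 45.8, 64.3, 67.8, 81.8 and 65.7 in FoEV. Of the FeEV libraries, 3 lay above every Co library and the other 2 lay below Co replicate 4. The Co mean was 56.5 ± 6.37 CPM, that of FeEV 69.9 ± 7.21 and that of FoEV 65.1 ± 12.8 (SD, n = 5). For FeEV treatment vs. Co the log2 fold change was 0.31 with a standard error of 0.13 (edgeR quasi-likelihood, unadjusted p = 0.0264, adjusted p = 1.00), and for FoEV treatment vs. Co it was 0.20 (95% interval -0.06 to 0.47). The unadjusted p was above 0.05 when Co replicate 1, 2 or 3 or FeEV replicate 4 was left out. YARS1 is one of the overlapped genes, its neighbour being S100PBP.

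YARS2, its mitochondrial counterpart, had its lowest mean in FoEV. It had 49.2, 66.8, 41.0, 46.6 and 45.6 CPM in Co, 44.4, 44.2, 46.9, 48.3 and 43.3 in FeEV and 35.4, 36.1, 44.4, 37.7 and 45.8 in FoEV. The values of FoEV replicates 1, 2 and 4 lay below every Co and FeEV library, whereas replicates 3 and 5 lay within the Co range, and Co replicate 2 was the highest of the 15. The treatment means were 49.8 ± 9.95 CPM (Co), 45.4 ± 2.09 CPM (FeEV) and 39.9 ± 4.85 CPM (FoEV) (SD, n = 5). For FoEV treatment vs. Co the log2 fold change was -0.32 with a standard error of 0.13 (edgeR quasi-likelihood, unadjusted p = 0.0171, adjusted p = 0.230, beside 6.88% of all genes lower at an unadjusted p under 0.05). The unadjusted p of YARS2 was above 0.05 without Co replicate 2 (log2 fold change -0.19), with thinned counts and with the numbers of the sample descriptions as a block (log2 fold change -0.26). This gene also is overlapped, by DNM1L.

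EARS2 encodes the mitochondrial glutamate enzyme, which also loads the mitochondrial glutamine tRNA with glutamate. It had 39.0, 48.9, 31.9, 41.7 and 32.4 CPM in Co, 47.4, 46.0, 32.8, 38.7 and 41.6 in FeEV and 16.9, 31.3, 31.7, 37.7 and 36.5 in FoEV. FoEV replicate 1 was lower than the other 14 libraries. FoEV replicates 2 and 3 also lay below every Co and FeEV library, though close to Co replicate 3 (31.3 and 31.7 against 31.9 CPM). FoEV replicates 4 and 5 lay within the range of both treatments. The means were 38.8 ± 7.05, 41.3 ± 5.87 and 30.8 ± 8.29 in the same order (SD, n = 5), and FoEV minus FeEV was -0.43 on the log2 scale with a standard error of 0.18 (edgeR quasi-likelihood, unadjusted p = 0.0222, adjusted p = 0.523). Without FoEV replicate 1, or without FeEV replicate 1 or 2, its unadjusted p was above 0.05. For FoEV treatment vs. Co the log2 fold change of EARS2 was -0.34 (edgeR quasi-likelihood, unadjusted p = 0.0670, adjusted p = 0.368). That unadjusted p was under 0.05 with no filter and without Co replicate 3 or 5 or FoEV replicate 4 or 5. The next step of that route, the conversion of glutamate to glutamine on the tRNA, is made by the amidotransferase subunits QRSL1, GATB and GATC. QRSL1 had 44.5, 54.3, 46.8, 55.0 and 47.2 CPM in Co, 52.2, 47.5, 36.9, 49.2 and 43.3 in FeEV and 35.7, 41.4, 37.5, 39.1 and 44.4 in FoEV. Its 5 FoEV libraries lay below the 5 Co libraries, the closest at 44.4 and 44.5 CPM, beside 1.35% of all genes. The log2 fold change of QRSL1 for FoEV treatment vs. Co was -0.32 (edgeR quasi-likelihood, unadjusted p = 0.00938, adjusted p = 0.192), and GATB and GATC had log2 fold changes of 0.15 and -0.12.

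SARS2, the mitochondrial serine enzyme gene, had its highest mean in FoEV. It had 18.2, 10.8, 15.5, 14.0 and 11.9 CPM in Co, 16.4, 14.1, 13.8, 13.2 and 12.3 in FeEV and 14.4, 17.7, 16.5, 22.0 and 18.8 in FoEV. FoEV replicates 2 to 5 lay above every FeEV library, and FoEV replicate 1 lay within the FeEV range. The means were 14.1 ± 2.95, 14.0 ± 1.53 and 17.9 ± 2.85 in the same order (SD, n = 5), and the log2 fold change for FoEV vs. FeEV treatment was 0.35 (standard error 0.17, edgeR quasi-likelihood, unadjusted p = 0.0491, adjusted p = 0.578). Against Co it was 0.33 (unadjusted p = 0.0598, adjusted p = 0.354 in the same fit). The log2 fold change against FeEV ran from 0.27 to 0.42 with 1 library left out, so its direction and size did not rest on a single library. Its unadjusted p lay close to the threshold and was above 0.05 with Co replicate 3, 4 or 5, FeEV replicate 2, 3, 4 or 5, or FoEV replicate 2, 3, 4 or 5 left out, with either set of replicate numbers as a block, with DESeq2 or its size factors, and with filterByExpr or no filter.

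**Figure D3:**
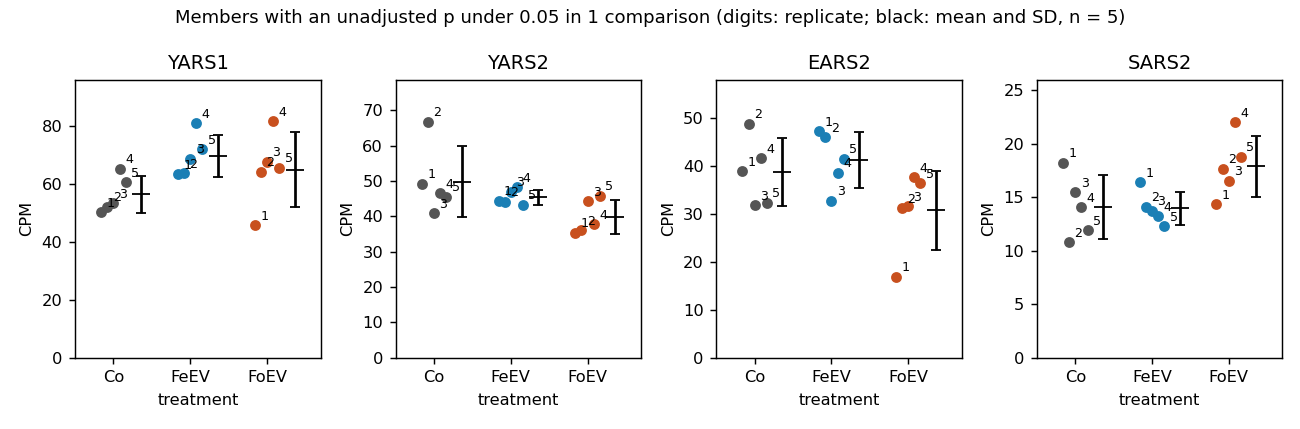
CPM of the 4 synthetase genes with an unadjusted p under 0.05 in 1 comparison (YARS1, YARS2, EARS2 and SARS2) in each library, with the replicate number beside each point and the mean and SD of 5 libraries in black, on axes that start at 0. The treatments overlapped for all 4 genes, and the Co replicate 2 point of YARS2 and the FoEV replicate 1 point of EARS2 lie apart from the rest of their treatment.

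The remaining genes showed smaller or less certain differences. FARSB, the beta subunit gene of the phenylalanine enzyme, had means of 84.4 CPM for Co, 85.4 for FeEV and 80.8 for FoEV, and its log2 fold change for FoEV treatment vs. Co was -0.06, whereas that of the alpha subunit gene FARSA was 0.15 (95% interval -0.14 to 0.45). VARS1 (valine) had means of 74.4 CPM for Co, 78.0 for FeEV and 83.3 for FoEV, and WARS1 (tryptophan) had 181 CPM for Co, 191 for FeEV and 192 for FoEV. In the mitochondrial class the log2 fold changes for FoEV treatment vs. Co were -0.04 for AARS2 (alanine) and 0.14 for LARS2 (leucine). NARS2 (asparagine) had 28.5 CPM for Co, 27.4 for FeEV and 24.8 for FoEV, with a log2 fold change of -0.19 (95% interval -0.53 to 0.15) for FoEV treatment vs. Co, and VARS2 (valine) had 18.4 CPM for Co, 16.6 for FeEV and 19.4 for FoEV, with 0.23 (95% interval -0.13 to 0.59) for FoEV vs. FeEV treatment. All of these intervals include 0. For CARS2 (cysteine), FARS2 (phenylalanine), RARS2 (arginine), TARS2 (threonine) and WARS2 (tryptophan) the log2 fold changes for FoEV treatment vs. Co were 0.14, 0.17, -0.07, 0.05 and 0.08, and for FeEV treatment vs. Co 0.12, 0.03, 0.12, 0.11 and 0.15.

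The cytosolic and mitochondrial enzymes of the same amino acid could be set side by side for 13 amino acids. The log2 fold change of the cytosolic gene was above that of the mitochondrial gene in 9 of 13 pairs for FoEV treatment vs. Co, 8 for FeEV treatment vs. Co and 8 for FoEV vs. FeEV treatment, with median differences of 0.01, 0.07 and 0.03. The pair furthest apart was that for tyrosine, with YARS1 0.53 above YARS2 in FoEV treatment vs. Co and 0.44 above it in FeEV treatment vs. Co. In FoEV vs. FeEV treatment the widest gap was that for serine, with SARS1 at -0.01 and SARS2 at 0.35. For leucine the order was turned, with LARS1 at -0.07 and LARS2 at 0.14 in FoEV treatment vs. Co. The differences within pairs were not tested.

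A mean of log2 CPM over the genes of a class gave 1 score per library. The cytosolic score of the Co libraries was 6.88, 6.95, 6.81, 6.87 and 6.91, followed by 6.89, 7.00, 6.91, 7.08 and 7.01 for FeEV and 6.65, 6.87, 7.09, 7.14 and 6.89 for FoEV. FoEV replicate 1 had the lowest cytosolic score of the 15 libraries, and FoEV replicates 4 and 3 had the highest. The mean was 6.88 ± 0.05 for Co, 6.98 ± 0.08 for FeEV and 6.93 ± 0.19 for FoEV (SD, n = 5). The FeEV mean lay 0.09 above that of Co, more than the SD of either, although their libraries overlapped, and the FoEV mean lay 0.04 above that of Co, less than the SD of FoEV. With the median over the genes of a library in place of the mean, these differences turned to -0.01 and -0.06, so the direction depended on the summary used. For the mitochondrial score the values were 4.53, 4.51, 4.42, 4.43 and 4.50 with Co, 4.51, 4.60, 4.40, 4.47 and 4.54 with FeEV, and 4.32, 4.43, 4.48, 4.49 and 4.59 with FoEV. Its means were 4.48 ± 0.05, 4.50 ± 0.08 and 4.46 ± 0.10, and FoEV replicate 1 was again the lowest library. The difference of FeEV and Co was 0.03 there and -0.005 with the median. The cytosolic score exceeded the mitochondrial one by 2.41 ± 0.04 for Co, 2.47 ± 0.09 for FeEV and 2.46 ± 0.16 for FoEV, and its highest values were those of FoEV replicates 4 and 3 (2.65 and 2.61) and FeEV replicate 4 (2.61).

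**Figure D4:**
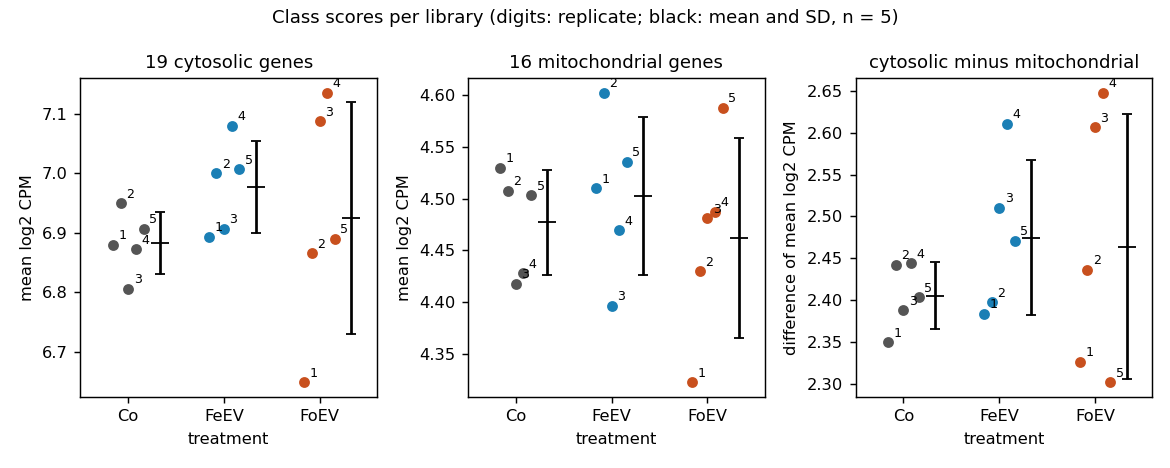
Mean log2 CPM over the 19 cytosolic genes, over the 16 mitochondrial genes, and the difference of the 2 scores, for each library, with the replicate number beside each point and the mean and SD of 5 libraries in black. The 5 FoEV libraries span from 6.65 (replicate 1) to 7.14 (replicate 4) on the cytosolic axis, wider than the libraries of Co and FeEV.

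The cytosolic genes spread most between the FoEV libraries. The median coefficient of variation of the cytosolic genes was 10.3% for Co, 8.77% for FeEV and 16.1% for FoEV, whereas that of the mitochondrial genes was 18.2%, 16.4% and 16.5% and that of all genes 16.6%, 15.4% and 17.4%. Counting alone would give the cytosolic genes a median of 5.27%, 4.97% and 4.66%. In FoEV, replicate 1 held the lowest value for 12 of 19 cytosolic and 8 of 16 mitochondrial genes, beside 18.2% of all genes, and replicate 4 held the highest value for 9 and 5, beside 23.6% of all genes. Both at once, lowest in replicate 1 and highest in replicate 4, held for 8 cytosolic genes (AARS1, CARS1, GARS1, IARS1, KARS1, MARS1, SARS1 and YARS1) and 4 mitochondrial genes (EARS2, LARS2, SARS2 and VARS2), beside 5.61% of all genes. This pattern, and the genes named for it, were chosen after their values had been seen.

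GARS1, the glycine enzyme gene, had 176, 195, 181, 165 and 211 CPM in Co, 227, 221, 203, 248 and 214 in FeEV and 143, 228, 216, 284 and 189 in FoEV. IARS1, for isoleucine, had 182, 248, 222, 201 and 224 CPM in Co, 250.0, 281, 242, 261 and 236 in FeEV and 137, 218, 244, 273 and 204 in FoEV. In both genes FoEV replicate 1 was the lowest of the 15 libraries. For IARS1, 3 of 5 FeEV libraries lay above every Co library, and for GARS1 FoEV replicate 4 was the highest of all. CARS1, for cysteine, had 98.8, 103, 91.6, 103 and 114 CPM in Co, 116, 109, 107, 140.3 and 120.4 in FeEV and 74.1, 99.6, 123, 158 and 109 in FoEV. MARS1, for methionine, had 64.5, 81.0, 69.7, 55.4 and 73.0 CPM in Co, 72.4, 80.2, 69.1, 87.0 and 84.1 in FeEV and 53, 66.8, 104, 104 and 70.1 in FoEV. The coefficients of variation in FoEV were 24.6% for GARS1, 23.6% for IARS1, 27.3% for CARS1 and 29.0% for MARS1, against 9.67%, 11.6%, 8.14% and 13.9% in Co. MARS1 overlaps DDIT3, a stress response gene with 22.9, 19.7, 30.6, 16.7 and 21.0 CPM in FoEV, and the strand setting that would separate their reads is not given.

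AARS1 (alanine) and SARS1 (serine) followed the same order, with 171, 219.7, 219, 272 and 185 CPM and 95.9, 98.1, 132, 159 and 113 CPM in FoEV replicates 1 to 5, against 174 to 211 and 92.3 to 135 in Co. Not every cytosolic gene did so. QARS1 (glutamine) had 141, 133, 162, 141 and 142 CPM in FoEV, LARS1 (leucine) 119, 116, 126, 141 and 122 and RARS1 (arginine) 46.5, 56.0, 54.8, 52.1 and 60.2, and their coefficients of variation of 7.48%, 7.64% and 9.41% in FoEV were below the 12.9%, 8.85% and 11.6% of Co. KARS1 (lysine), also of the complex, had 208, 223, 234, 248 and 228 CPM, and although replicates 1 and 4 were its lowest and highest FoEV libraries its coefficient of variation was 6.53%. The 7 complex members therefore included both genes that spread widely in FoEV (IARS1 and MARS1) and genes that did not. Under other scalings the number of cytosolic genes lowest in replicate 1 and highest in replicate 4 was 9 with the size factors of DESeq2, 9 with TMM factors computed without small RNA, ribosomal RNA and mitochondrially encoded genes, 6 with counts thinned to 1 depth and 5 with library totals alone, beside 6.17%, 6.41%, 5.95% and 2.07% of all genes.

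**Figure D5:**
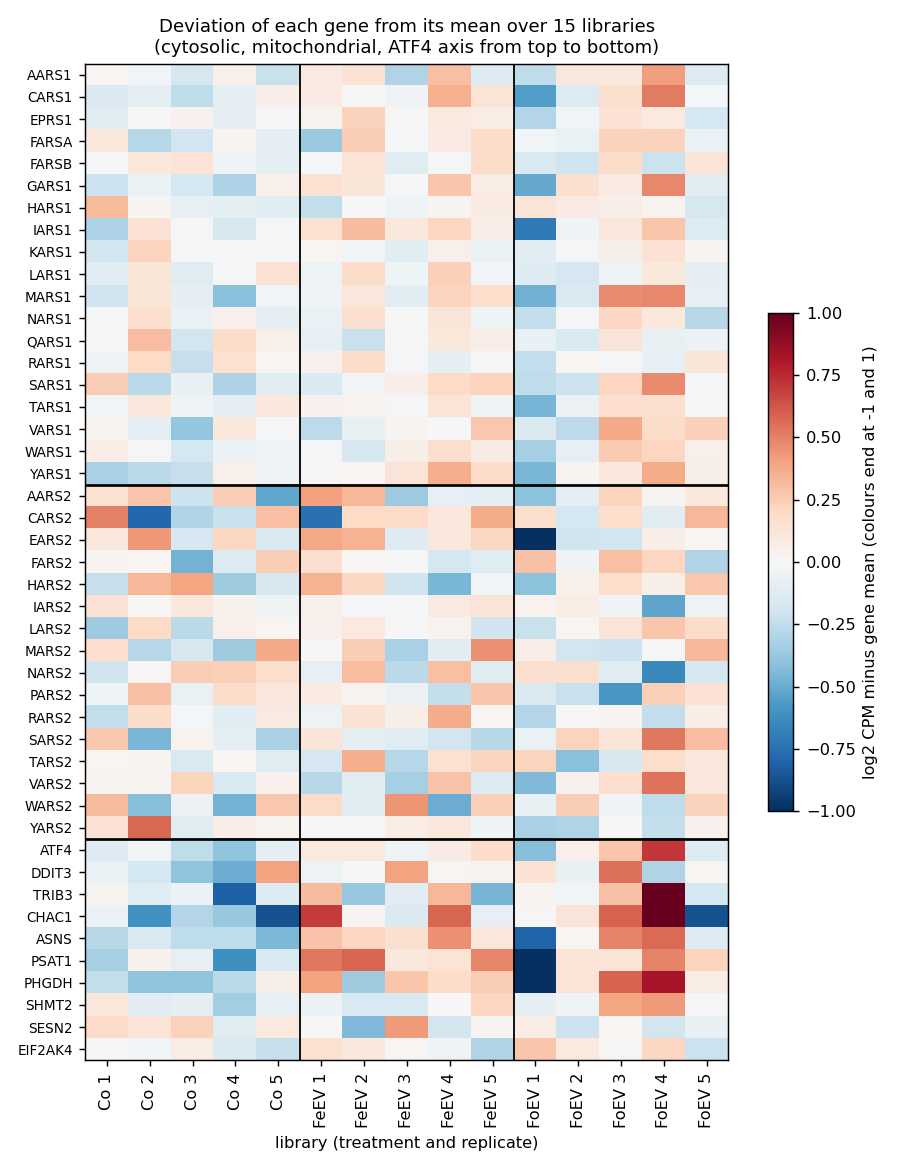
Log2 CPM of each gene minus its mean over the 15 libraries, with libraries in columns and genes in rows (19 cytosolic, 16 mitochondrial and the 10 tested genes of the ATF4 axis from top to bottom), red above and blue below the mean. The FoEV replicate 1 column is blue and the FoEV replicate 4 column red for genes of all 3 blocks. Among them are AARS1, CARS1, GARS1, IARS1, MARS1, SARS1 and YARS1, the mitochondrial LARS2 and VARS2, and ATF4, ASNS, PSAT1 and PHGDH. Not all genes show this, and for IARS2 and NARS2 the colours are the other way round.

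ATF4 and its known targets were read in the same libraries. ATF4 had 217, 232, 198, 179 and 222 CPM in Co, 252, 253, 229, 250.5 and 268 in FeEV and 176, 244, 287, 386 and 216 in FoEV. ASNS, the asparagine synthetase gene, had 121, 132, 123, 123 and 107 CPM in Co, 179, 170.5, 164, 202 and 159 in FeEV and 84.1, 149, 207, 217 and 134 in FoEV. The 5 FeEV libraries lay above the 5 Co libraries for ASNS, beside 0.535% of all genes, and the difference was 0.53 on the log2 scale (edgeR quasi-likelihood, standard error 0.19, unadjusted p = 0.0121, adjusted p = 1.00), while the FoEV libraries lay on both sides of Co. By its own test and threshold, the study listed ASNS among the genes higher in FeEV than in Co. PSAT1 and PHGDH, enzymes of serine synthesis, had 20.4, 72.9, 73.0, 94.1 and 77.7 CPM and 23.2, 55.7, 76.9, 90.5 and 53.7 CPM in FoEV, against 43.3 to 68.8 and 38.4 to 52.9 in Co. Of the 10 genes of the ATF4 axis that were tested, 5 (ATF4, ASNS, PSAT1, PHGDH and SHMT2) were lowest in FoEV replicate 1 and highest in FoEV replicate 4, beside 5.61% of all genes. The other 5 did not follow this order. TRIB3 and CHAC1 were highest in replicate 4 but lowest in replicate 5, and DDIT3 was lowest in replicate 4. EIF2AK4, the sensor of uncharged tRNA, and SESN2 were highest of the FoEV libraries in replicate 1. Replicate 1 was the deepest library, with 4058887 counts and the highest trophectoderm marker sum of the 15 libraries (11182 CPM), and replicate 4 was the shallowest FoEV library, with 3392613 counts and the highest inner cell mass marker sum (505 CPM). The part of depth and of cell makeup in the spread was not tested.

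Which genes passed the unadjusted threshold changed when these libraries were left out. Without FoEV replicate 1, 6 of the 35 synthetase genes had an unadjusted p under 0.05 for FoEV treatment vs. Co, beside 13.0% of all genes in the same fit, with CARS1, GARS1, MARS1, YARS1 and SARS2 higher and YARS2 lower in FoEV, and the median of the cytosolic genes was 0.12. In that fit 3 genes passed for FeEV treatment vs. Co (GARS1, IARS1 and YARS1, beside 4.22% of all genes) and 2 for FoEV vs. FeEV treatment (SARS2 and VARS2, beside 6.49%). Without FoEV replicates 1 and 4 together, an alternative chosen after seeing the data, 0 of the 35 genes had an unadjusted p under 0.05 for FoEV treatment vs. Co, beside 8.41% of all genes, and CARS1, GARS1, IARS1 and YARS1 did so for FeEV treatment vs. Co, all higher in FeEV, which makes 4 of 35 beside 4.95% of all genes, and 0 did so for FoEV vs. FeEV treatment, beside 4.3%. None of these had an adjusted p under 0.05. With all libraries, the log2 fold changes for FeEV treatment vs. Co were 0.26 for GARS1 (95% interval -0.01 to 0.53), 0.24 for IARS1 (-0.04 to 0.51), 0.21 for CARS1 (-0.08 to 0.51) and 0.19 for MARS1 (-0.14 to 0.52). For FoEV treatment vs. Co they were 0.19, -0.004, 0.14 and 0.20.

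Other genes of tRNA charging and of its regulation were taken from a list of 33 genes, of which 28 were in the filtered table. With an unadjusted p under 0.05, FoEV treatment vs. Co gave 5 higher and 3 lower genes, FeEV treatment vs. Co 3 higher and 0 lower, and FoEV vs. FeEV treatment 1 higher and 1 lower, and edgeR called 0 at an adjusted p under 0.05. The share of all genes at this unadjusted p was 8.18% higher and 6.88% lower in the first comparison, 1.83% and 2.32% in the second, and 4.83% and 3.69% in the last. The scaffold genes AIMP1, AIMP2 and EEF1E1 had log2 fold changes of 0.15, 0.21 and 0.09 for FoEV treatment vs. Co and none passed this threshold in any comparison. DTD1, which removes wrongly attached D-amino acids from tRNA, had 19.3, 21.3, 12.9, 15.7 and 18.9 CPM in Co, 22.9, 23.8, 21.9, 22.8 and 21.8 in FeEV and 24.5, 18.7, 21.8, 24.7 and 25.9 in FoEV. Its FeEV libraries lay above every Co library, beside 0.535% of all genes, and its log2 fold changes against Co were 0.36 for FeEV (edgeR quasi-likelihood, unadjusted p = 0.0245, adjusted p = 1.00) and 0.39 for FoEV (unadjusted p = 0.0143, adjusted p = 0.216).

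The subunit genes POP1 and RPP30 of the ribonuclease that trims the start of tRNA precursors went in opposite directions. POP1 had 13.1, 8.10, 13.2, 10.8 and 11.5 CPM in Co, 13.4, 13.0, 11.6, 12.8 and 11.2 in FeEV and 20.1, 17.4, 18.7, 18.4 and 12.5 in FoEV. RPP30 had 34.3, 31.7, 31.0, 28.5 and 33.2 CPM in Co, 27.7, 30.1, 29.4, 31.9 and 27.4 in FeEV and 23.6, 21.2, 22.9, 25.0 and 26.7 in FoEV. FoEV lay below both other treatments in all libraries for RPP30, and for POP1 the FoEV libraries except replicate 5 lay above all others. Of all genes, 1.35% had all FoEV libraries below Co and 0.748% had them below FeEV. The log2 fold changes for FoEV treatment vs. Co were 0.62 for POP1 and -0.41 for RPP30 (edgeR quasi-likelihood, adjusted p = 0.131 and 0.131, unadjusted p = 0.00160 and 0.00165). By its own test and threshold, the study listed POP1 among the genes higher in FoEV than in Co. SEPSECS, which makes selenocysteine on its tRNA, had 32.8 to 49.0 CPM in Co and 26.2 to 38.8 in FoEV (log2 fold change -0.30). In the ATF4 axis, 3 of 10 genes were higher at an unadjusted p under 0.05 for FoEV treatment vs. Co (ATF4, TRIB3 and CHAC1), 2 for FeEV treatment vs. Co (CHAC1 and ASNS) and 0 for FoEV vs. FeEV treatment, with medians of 0.28, 0.24 and 0.05 beside 0.01, 0.00 and 0.01 over all genes. TRIB3 had 12.0, 11.6, 14.6, 30.0 and 10.4 CPM and CHAC1 8.10, 8.83, 12.4, 20.4 and 4.09 CPM in FoEV, with replicate 4 the highest library of all 15 for both.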

How the data were processed

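RNA sequencing of 15 pools of bovine blastocysts, 5 each of Co, FeEV and FoEV, was grouped by the treatment in the sample titles. The authors deposited counts of reads per gene, without normalization, for 34773 genes and for the 10832 genes left by their filter. Per the labels, Trim Galore 0.4.3.1, HISAT2 2.1.0 and featureCounts 1.6.3 were used on ARS-UCD1.2, whereas the study's methods name QuasR Qcount, and which of them made the deposited counts could not be settled. The kit selected a strand, and the strand setting of the counting is not given in the sources used here. The gene symbols, members and gene lists were chosen with earlier results of these data known. Symbols and overlapping neighbours came from a reference table of the later assembly ARS-UCD2.0, with 10709 of 10832 identifiers matched and all 35 members found, and no coordinates were carried over.

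The filtered counts were scaled by TMM and fitted with edgeR 4.0.16 in R 4.3.3 (estimateDisp, glmQLFit with robust = TRUE, glmQLFTest), with treatment as the only factor, 15 libraries in 1 fit and Benjamini-Hochberg adjustment over 10832 genes. The common biological coefficient of variation was 0.159. Scores used log2 CPM with a prior count of 2. DESeq2 1.42.0 and the study's own robust dispersion with a likelihood ratio test were alternatives, with other scalings, filters, blocks, thinned counts and each library left out. Tables and figures were made in Python 3.11.15 with numpy 2.4.6, pandas 2.3.3 and matplotlib 3.10.9. In counts simulated for FoEV and Co over 10832 genes, 200 genes above a minimum mean count were given a log2 change of 1. The F test found 87.5% of them, with 4.37% false among its calls, against 7.81% for DESeq2 and 21.2% for the robust likelihood ratio test. The largest log2 fold change of a synthetase gene in size was -0.43 (EARS2, FoEV vs. FeEV treatment). How often differences of that size would be found was not simulated. The titles and the study's methods call the pools replicates, and neither was found to state that each pool came from a separate culture, so p-values measure the spread between these pools.

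Values in every library are given for members with an unadjusted p under 0.05 in any comparison and, in each class, for the 3 with the most and the 2 with the fewest reads. This was to be ranked per length, for which no transcript lengths were at hand. Other members with values, and the libraries FoEV 1 and 4, were chosen after values were seen. No sequences were at hand, so none are shown. The mean correlation of deviations between libraries with the same title number was 0.03, 0.14 and 0.19 in the 3 comparisons. It was -0.01, -0.03 and -0.05 between libraries with other numbers. The largest same-number value was 0.44, in FoEV vs. FeEV treatment, and at least 1 pair in each comparison was under 0.1. The sample descriptions carry other numbers, shared by 3, 3 and 4 pairs, with mean correlations of 0.08, 0.10 and 0.07 and 1 pair above 0.1 in each comparison. The study states that the fresh and frozen oEVs came from the same oviducts and were split. Whether either set of numbers marks this shared source was not found to be stated. Neither set of numbers was taken as pairs, so the main fit does not account for a shared source.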

Additional observations from a re-analysis of the deposited data

Results flagged for a closer look

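Of 114 groups of 5 libraries tested (35 genes and 3 scores in 3 treatments), 2 held a library far from the other 4, with a gap to the nearest library of over 0.71 of the whole range, and chance alone marks about 1 group in 20. HARS1 was at 64.5 CPM in Co replicate 1, and the nearest Co library was at 52.6. IARS2 was at 84.5 CPM in FoEV replicate 4, and the nearest FoEV library was at 117 CPM. The other counts of FoEV replicate 4 lay on both sides of the FoEV mean, with that library highest in FoEV for 14 and lowest for 4 of the 35 genes.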

How the results depend on the processing

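No synthetase gene had an adjusted p under 0.05 in any comparison under any of 26 alternatives, and the smallest adjusted p was 0.159 (YARS2, DESeq2, FoEV treatment vs. Co). The share of all genes at that adjusted threshold is not given here for the alternatives. Of 2730 values of single genes under these alternatives, 161 changed sign, each for a gene whose value with all libraries was at most 0.17 in size. The number of genes with an unadjusted p under 0.05 moved more. For FoEV treatment vs. Co it was 1, and it was 2 with no filter, 2 with the numbers of the sample descriptions as a block (GARS1 and SARS2, both higher in FoEV, with YARS2 no longer among them), 0 with thinned counts, 0 without FoEV replicates 1 and 4, and 0 to 6 with 1 library left out. The share of all genes was 15.1%, and 10.3%, 14.6%, 14.4% and 8.41% under the first 4 of these alternatives, in order. It ran from 11.5% to 18.1% with 1 library left out. For FeEV treatment vs. Co the number of synthetase genes was 1, and it was 3 with no filter, 3 with the robust likelihood ratio test, 3 with the replicate number of the titles as a block, 4 with the numbers of the descriptions (CARS1, GARS1, SARS1 and YARS1), 4 with only the 10 libraries of the comparison, 4 without FoEV replicates 1 and 4, and 0 to 3 with 1 library left out. Of all genes, 4.15% passed, and 4.46%, 6.13%, 5.35%, 5.12%, 5.05% and 4.95% did so under the alternatives named, in order. With 1 library left out the share ran from 2.9% to 5.63%. For FoEV vs. FeEV treatment the number of synthetase genes was 2 (EARS2 and SARS2), also 2 with no filter or with either block, but then IARS1 and EARS2, and it was 1 with the size factors of DESeq2, 1 with filterByExpr, 1 with DESeq2, 0 without FoEV replicates 1 and 4, and 0 to 2 with 1 library left out. Here 8.52% of all genes passed, 7.9% with no filter, and 11.1% and 6.28% with the title and description blocks. The next 4 alternatives gave 8.58%, 8.61%, 8.33% and 4.3%, and leaving out 1 library gave 5.87% to 11.4%. The block of title numbers gave 1, 3 and 2 genes, beside 17.6%, 5.35% and 11.1% of all genes, and 1, 2 and 2 of 5 libraries correlated best with their own number, against 1 of 3, 0 of 3 and 1 of 4 for the description numbers. The median of the mitochondrial genes for FoEV treatment vs. Co was 0.02 and ran from -0.057 to 0.039 with 1 library left out. The number of synthetase genes with FeEV above Co in all libraries was 0, and it was 2 with thinned counts and 0 to 2 with 1 library left out. For FoEV above and below FeEV it was 0 to 1 each with 1 library left out. With all libraries the shares of all genes were 0.535%, 0.757% and 0.748%, in the same order. Shares under these alternatives are not given here, and fewer libraries separate more easily, so these counts were not read as differences. The causes were not tested. Genes such as MARS2 and PARS2, with 16 and 18 counts in their lowest library, can show only large differences at this depth.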
